A study of Mus musculus with 22 samples.

Results

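The 8 genes described here encode kainate receptor subunits (Grik1, Grik2, Grik3, Grik4 and Grik5), their auxiliary subunits (Neto1 and Neto2) and a delta glutamate receptor subunit (Grid1). They were taken by gene symbol from the 55385 genes of the transcript tables, and all 8 were found and passed the low count filter. Ribosome-associated mRNA was profiled in 6 cell types of the mouse brain with 3 replicates each. A Cre line switched on an HA tag on the ribosomal protein RPL22 in the chosen cells, tagged ribosomes were pulled down from tissue lysate, and the poly(A) RNA they carried was sequenced.

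All mice were 6 weeks old and carried 1 copy of the conditional allele (Rpl22 Fl/+) together with Cre, and no group lacked the tag. Rbp4-Cre was used for both dentate gyrus granule cells, from hippocampus, and layer V cortical neurons, from cortex, so these groups differ in dissected tissue and not in driver. Gabra6-Cre was used for cerebellar granule cells, and Dlx6a-Cre for inhibitory interneurons of the hippocampus, for which each library pooled 2 mice. The glial lines, labelled Aldh1-cre for cortical astrocytes and Tmem119-cre for cortical microglia, were tamoxifen-inducible according to the methods, so only the glial groups received tamoxifen. A gene counts as expressed by a cell type here only as far as the driver, the dissection and the pull-down separate that type from its neighbours. A lower level can come from fewer cells of a type or from less RNA per cell, and these cannot be told apart. Interneuron and microglia libraries were sequenced in batch 2 and the others in batch 1, with 1 replicate of each batch 1 group sequenced again in batch 2. Comparisons of interneurons or microglia with the other types therefore cross batches, except in a second fit made within the 10 libraries of batch 2. In that fit dentate granule cells, layer V neurons, cerebellar granule cells and astrocytes have 1 library each, assumed to vary like the interneuron and microglia libraries, so its values are given without a test. Its only layer V library did not match its sex label, Male, which also differs from the label of the batch 1 library of the same replicate, Female.

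The main libraries held 38270477 to 71440915 estimated read counts. Replicates of a cell type correlated at 0.991 or above over genes, and libraries of different types at 0.970 or below. Of 18 defining marker genes, 17 were higher in every library of their own type than in any other library, the exception being Bcl11b, which was higher in dentate granule cells than in layer V neurons. Markers of other cells were present at lower levels. The oligodendrocyte marker Mbp, a myelin protein gene, was at 1160 to 1213 TPM in interneurons (TPM divides the counts by transcript length and scales each library to the same total), against 429 to 528 TPM in astrocytes and less in the other groups. Mog, another myelin gene, was at 65.7 to 70.9 TPM in interneurons and at 21.5 TPM or less in every other library. Of the interneuron markers in dentate granule cells, Gad1 was at 143 to 160 TPM (1978 to 2084 in interneurons), Gad2 at 3.74 to 5.99 TPM (551 to 603) and Dlx6os1 at 0.572 to 0.753 TPM (85.1 to 93.5). The last of these were close to their layer V means of 6.65 and 0.598 TPM, and Gad1 was not, at 14.9 TPM there.

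Kainate receptors are glutamate-gated channels built from 4 subunits, named GluK1 to GluK5 after the genes. GluK1, GluK2 and GluK3 can form channels on their own, whereas the high-affinity subunits GluK4 and GluK5 reach the surface as functional channels only together with them. NETO1 and NETO2 are membrane proteins that bind the receptors and slow their kinetics. Delta receptors share the fold of this family but are known mainly as synaptic organisers that bind presynaptic cerebellins. In the brain, kainate receptors are best known at the mossy fibre synapses made by dentate granule cells and on hippocampal interneurons.

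The order of the cell types was not the same for all genes. Inhibitory interneurons had the highest mean TPM for 3 of the 8 genes (Grik1, Grik3 and Neto1), dentate granule cells for 3 (Grik4, Grik5 and Grid1) and cerebellar granule cells for 2 (Grik2 and Neto2). Cerebellar granule cells had the lowest mean for the other 6 genes, and microglia for Grik2 and Neto2. Across the 15 pairs of cell types, 113 of the 120 tests on these genes passed an adjusted p of 0.05 (edgeR quasi-likelihood test, Benjamini-Hochberg over 20524 genes in each pair). The cell types differ so widely that 75.1% of the tests over all genes passed as well. With a difference of at least 2-fold also required, 87 of the 120 passed, or 72.5%, against 45.3% over all genes. All 8 genes differed among the 6 types in an overall test, as did 97.3% of all genes.

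The pairs show where the genes set cell types apart. Cerebellar granule cells differed from every other type in all 8 genes. Against dentate granule cells (73.9% of all genes called), layer V neurons (76.1%), interneurons (75.2%), astrocytes (82.7%) and microglia (85.5%) they were higher for the same pair of genes, Grik2 and Neto2, and lower for the other 6. Against microglia all 8 genes were called higher in layer V neurons (83.2% of all genes called) and in interneurons (80.8%), and 7 were in dentate granule cells, with Grik1 lower there (8 called, 79.8%). Astrocytes and microglia differed in 7 genes (76.1%), each higher in astrocytes.

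Between forebrain neurons the counts were smaller. Dentate granule cells differed from layer V neurons in 7 genes (63.4% of all genes called), 5 of them higher in dentate granule cells, and from interneurons in 7 (63.9%), 4 of them higher in dentate granule cells. Layer V neurons and interneurons differed in 6 genes (60.7%), of which 5 were higher in interneurons. Against astrocytes the dentate granule cells differed in 8 genes (74.2%), 6 of them higher, layer V neurons in 7 (77.2%), each higher in layer V neurons, and interneurons in 7 (73.2%), 6 of them higher.

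**Figure D1:**
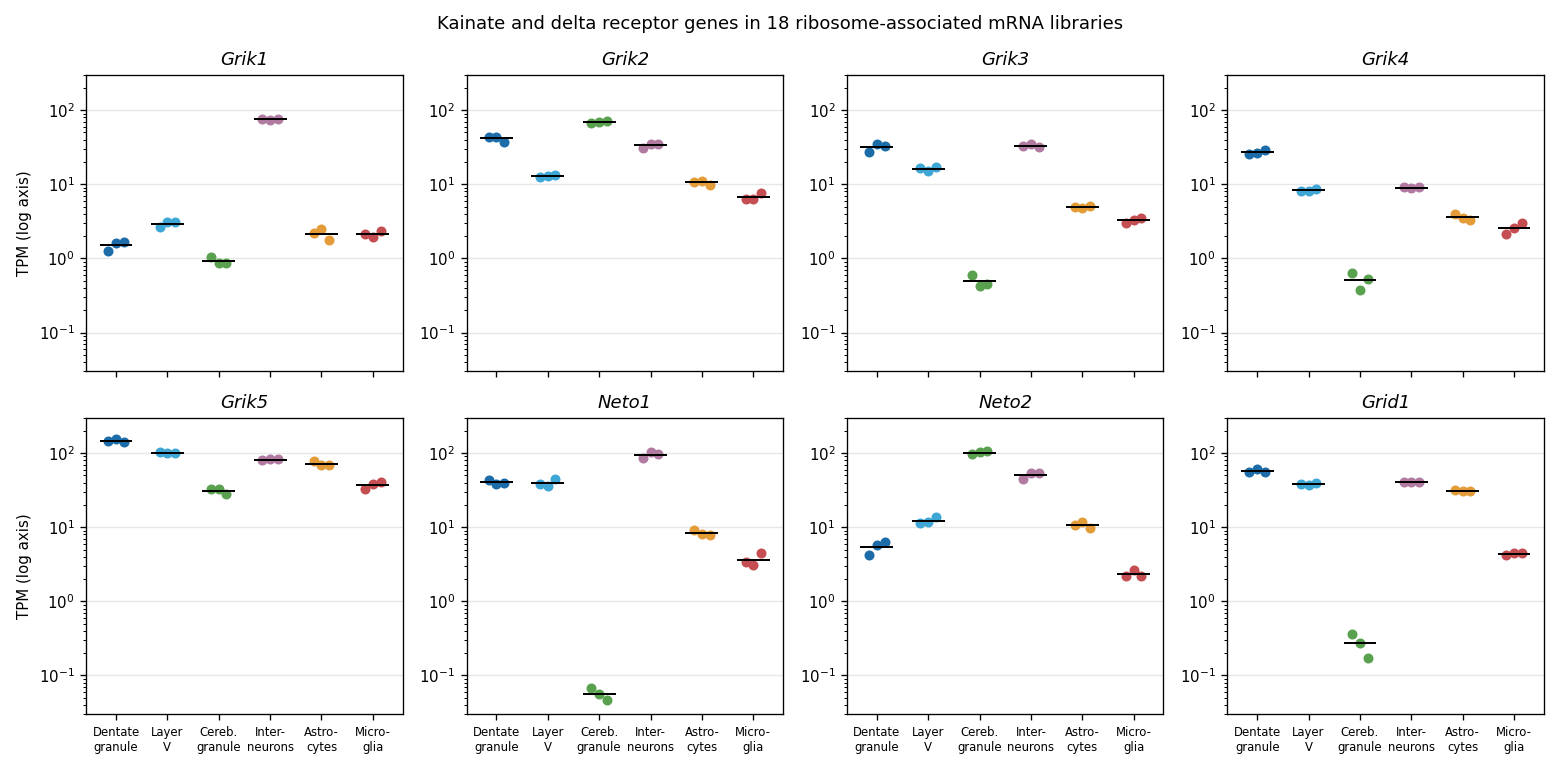
Level of each of the 8 genes in TPM on a log axis for the 6 cell types. Points are the 3 libraries of a type and bars their mean. Cerebellar granule cells lie lowest for 6 genes and highest for Grik2 and Neto2, and Grik1 stands at 74.7 to 75.9 TPM in interneurons and at 3.12 TPM or less in every other library.

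Grik1 encodes GluK1 and lies on the minus strand at chr16:87895900-88290265 (GRCm38). The interneuron libraries had 74.9, 74.7 and 75.9 TPM. Layer V neurons had 2.66, 3.09 and 3.12 TPM, dentate granule cells 1.25, 1.59 and 1.68 TPM, and cerebellar granule cells 1.04, 0.879 and 0.866 TPM. Astrocytes had 2.21, 2.49 and 1.75 TPM and microglia 2.16, 1.96 and 2.36 TPM. The interneuron libraries were thus apart from all the others, and the remaining types lay within a few TPM of each other. The mean in interneurons was 25.4 times that in layer V neurons, the next highest type. The fitted difference was 4.37 on the log2 scale (SE 0.0955, adjusted p = 5.04e-16). Astrocytes and microglia overlapped and did not pass the test (astrocytes minus microglia 0.19, SE 0.0993, adjusted p = 0.0963). Within batch 2 this difference was 0.32. Dentate granule cells minus microglia was -0.56 (adjusted p = 0.000138) and -0.19 within batch 2.

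Most Grik1 signal in interneurons was assigned to 2 protein-coding transcripts that differ in which of 2 short exons they carry. Grik1-202 carries an exon of 87 bases at chr16:87896809-87896895, and Grik1-211 carries one of 45 bases at chr16:87955289-87955333. The exon of 87 bases lies in the part that encodes the intracellular tail, and the exon of 45 bases in the part that encodes the extracellular amino-terminal domain. They are shown because both transcripts were assigned a large part of Grik1 TPM in interneurons. Each runs 5′ to 3′ along the transcript, with the exon in capitals and 15 bases of the neighbouring exons in lower case.
Grik1-202 exon: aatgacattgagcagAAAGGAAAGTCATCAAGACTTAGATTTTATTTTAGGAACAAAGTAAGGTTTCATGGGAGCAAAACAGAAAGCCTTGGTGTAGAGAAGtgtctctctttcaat
Grik1-211 exon: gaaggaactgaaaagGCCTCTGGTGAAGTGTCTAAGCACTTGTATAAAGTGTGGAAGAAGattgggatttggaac

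In the interneuron libraries Grik1-211 had 44.0, 42.3 and 41.3 TPM and Grik1-202 had 25.2, 28.9 and 31.0 TPM. Transcripts with the exon of 45 bases made up 58.8% ± 2.28 of Grik1 TPM (SD, n = 3), and those with the exon of 87 bases 37.7% ± 3.68. In the other types Grik1 was too low for a firm split, with the share of the exon of 87 bases at 59.01% ± 35.6 in cerebellar granule cells. Such shares rest on how kallisto divided reads among overlapping transcripts, and use of the exons was not measured directly.

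Grik2 encodes GluK2 and lies on the minus strand at chr10:49094833-49788766. Cerebellar granule cells had the highest level, with 67.7, 69.1 and 72.1 TPM. Dentate granule cells had 43.1, 43.8 and 37.5 TPM, interneurons 31.2, 34.9 and 35.4 TPM, and layer V neurons 12.4, 13.1 and 13.5 TPM. Astrocytes had 10.7, 11.2 and 9.92 TPM and microglia 6.37, 6.43 and 7.54 TPM. No neighbouring types in this order overlapped, and every neuron type was above both glial types. All 15 pairs passed the test. Cerebellar minus dentate granule cells gave a log2 difference of 0.99 (SE 0.0698, adjusted p = 4.68e-10). The step between dentate granule cells and interneurons was the smallest, at 0.23 (SE 0.0697, adjusted p = 0.00697). It did not pass without dentate replicate 1 (0.14, adjusted p = 0.135) or replicate 2 (0.19, adjusted p = 0.0722), and was 0.03 within batch 2. The call was also lost without the low count filter (0.16, adjusted p = 0.103) and with only these 2 types in the fit (0.20, adjusted p = 0.0792).

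Grik2 transcripts end in alternative coding exons. In Grik2-202, the main transcript, the last coding exon holds 162 coding bases at chr10:49101111-49101272. In Grik2-204 an upstream exon with 45 coding bases at chr10:49105021-49105065 comes first and brings a stop codon. Both ends are shown because Grik2-204 took a larger share in dentate granule cells than in other neurons. Capitals mark the last coding bases, without the stop codon, after 15 shared bases in lower case.
Grik2-202 end: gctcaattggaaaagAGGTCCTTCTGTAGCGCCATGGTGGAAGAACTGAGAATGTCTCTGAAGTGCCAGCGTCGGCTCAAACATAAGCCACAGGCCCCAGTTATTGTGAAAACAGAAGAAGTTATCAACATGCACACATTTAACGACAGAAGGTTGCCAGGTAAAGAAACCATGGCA
Grik2-204 end: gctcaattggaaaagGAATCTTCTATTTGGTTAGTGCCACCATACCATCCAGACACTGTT

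Grik2-204 had 6.09, 6.18 and 4.64 TPM in dentate granule cells, or 14.1%, 14.1% and 12.4% of the gene. In the other neuron types its share was 0.804% to 5.10%, and no library outside the dentate group had more than 1.81 TPM. One astrocyte library reached 11.2% of a lower gene total. With Grik2-209, a shorter transcript that holds the same exon, the share was 15.5% ± 2.54 in dentate granule cells (SD, n = 3), 10.4% ± 2.93 in interneurons, 8.70% ± 3.22 in layer V neurons, 4.70% ± 1.05 in cerebellar granule cells, 16.9% ± 3.67 in astrocytes and 30.7% ± 4.22 in microglia. The lowest dentate library (14.05%) was then little above the highest of interneurons (13.5%) and layer V neurons (12.4%), and below both glial means. Microglia differed in another way. Grik2-203, a transcript annotated as a retained intron, took 39.5%, 40.7% and 47.3% of their Grik2 TPM, and Grik2-202 only 7.16%, 16.6% and 0.813%. In neurons Grik2-203 stayed at or below 8.89% and in astrocytes it was at 10.1% to 14.99%. Protein-coding transcripts alone gave a microglial Grik2 mean of 3.63 TPM in place of 6.78. These shares are estimates of how kallisto divided reads among overlapping transcripts, and they were not tested.

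Grik3 encodes GluK3 and lies on the plus strand at chr4:125490700-125714173, with a single annotated transcript. Interneurons had 32.7, 34.6 and 31.8 TPM and dentate granule cells 27.6, 34.5 and 32.7 TPM. Layer V neurons had 16.8, 15.1 and 17.0 TPM, astrocytes 4.95, 4.72 and 5.10 TPM, and microglia 3.02, 3.34 and 3.52 TPM. The lowest levels were in cerebellar granule cells, at 0.604, 0.423 and 0.455 TPM. Interneurons and dentate granule cells overlapped and differed by 0.00 on the log2 scale (SE 0.0828, adjusted p = 0.988), while the other neighbours were separate. Dentate minus cerebellar granule cells was 5.92 (SE 0.112, adjusted p = 5.01e-18). For this gene the dentate and cerebellar granule cells were thus far apart.

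Of the high-affinity subunits, Grik4, which encodes GluK4, lies on the minus strand at chr9:42518135-42944493. Dentate granule cells had 25.3, 26.7 and 29.2 TPM. Interneurons had 9.15, 8.93 and 9.05 TPM, layer V neurons 8.15, 8.04 and 8.76 TPM, astrocytes 3.96, 3.49 and 3.32 TPM, and microglia 2.14, 2.60 and 3.04 TPM. In cerebellar granule cells the values were 0.628, 0.370 and 0.527 TPM. The dentate libraries were apart from all others, at 2.99 times the interneuron mean (log2 difference 1.51, SE 0.119, adjusted p = 3.52e-09). Interneurons and layer V neurons did not overlap in TPM but did not pass the test, with layer V minus interneurons at -0.08 (SE 0.119, adjusted p = 0.600). Astrocytes minus microglia was 0.41 (adjusted p = 0.00751), and did not pass without astrocyte replicate 1 (0.32, adjusted p = 0.0596) or microglia replicate 1 (0.22, adjusted p = 0.133), and was 0.27 within batch 2.

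Grik5, which encodes GluK5, lies on the minus strand at chr7:25009849-25072346 and was the most abundant of the 8 genes in 4 of the 6 types. Dentate granule cells had 144, 155 and 142 TPM and layer V neurons 103, 99.5 and 99.99 TPM. Interneurons had 79.8, 82.4 and 83.4 TPM and astrocytes 79.2, 68.9 and 68.7 TPM. Microglia had 32.3, 37.9 and 40.2 TPM and cerebellar granule cells 33.0, 32.3 and 27.9 TPM. Its range between types was the narrowest of the 8 genes, at 4.73 times from lowest to highest mean. Microglia and cerebellar granule cells overlapped, and microglia minus cerebellar granule cells was 0.31 (SE 0.0713, adjusted p = 0.000635). Within batch 2, cerebellar granule cells minus microglia was -0.22.

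The order of interneurons and astrocytes for Grik5 depended on the scale. All interneuron libraries were above all astrocyte libraries in TPM, by a factor of 1.13 between means. The fitted counts put interneurons below astrocytes by 0.18 on the log2 scale (SE 0.0704, adjusted p = 0.0313). That call was lost without any 1 of 16 of the 18 libraries (from -0.08 to -0.16 in those fits) and the difference was -0.01 within batch 2, so no order is given for these types. Dentate minus layer V neurons was 0.32 (SE 0.0703, adjusted p = 0.000674), against a TPM ratio of 1.46. It was 0.14 (adjusted p = 0.115) with protein-coding transcripts only.

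Only 1 of the 7 Grik5 transcripts is annotated as protein coding. Grik5-207, annotated as a target of nonsense-mediated decay, took a sizeable share in every type. It holds an extra exon, of which 123 bases at chr7:25061217-25061339 are annotated as coding. The exon is shown because its transcript was assigned reads in all 6 types, with those bases in capitals after 15 bases of the exon before.
Grik5-207 exon: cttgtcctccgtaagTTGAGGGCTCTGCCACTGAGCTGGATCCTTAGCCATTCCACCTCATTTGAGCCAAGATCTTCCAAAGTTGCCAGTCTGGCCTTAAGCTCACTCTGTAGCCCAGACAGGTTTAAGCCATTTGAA

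Grik5-207 made up 29.6% ± 1.94 of Grik5 TPM in dentate granule cells (SD, n = 3), 27.4% ± 1.25 in interneurons, 26.8% ± 1.84 in cerebellar granule cells and 26.1% ± 1.34 in astrocytes. It was 22.3% ± 2.09 in layer V neurons and 19.4% ± 2.36 in microglia. All dentate libraries (27.3% to 31.0%) were above all layer V (20.0% to 24.2%) and all microglia libraries (16.8% to 21.1%). Reads over the extra exon were not counted by themselves, and the shares depend on how kallisto divided reads among overlapping transcripts. Counting only the protein-coding transcript, mean Grik5 levels fell to 93.3 TPM in dentate granule cells, 72.3 in layer V neurons and 54.4 in the interneuron group, with 48.5 in astrocytes, 21.2 in microglia and 20.6 in cerebellar granule cells. These means ranked as those of the whole gene did, though no order is given for interneurons and astrocytes.

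**Figure D2:**
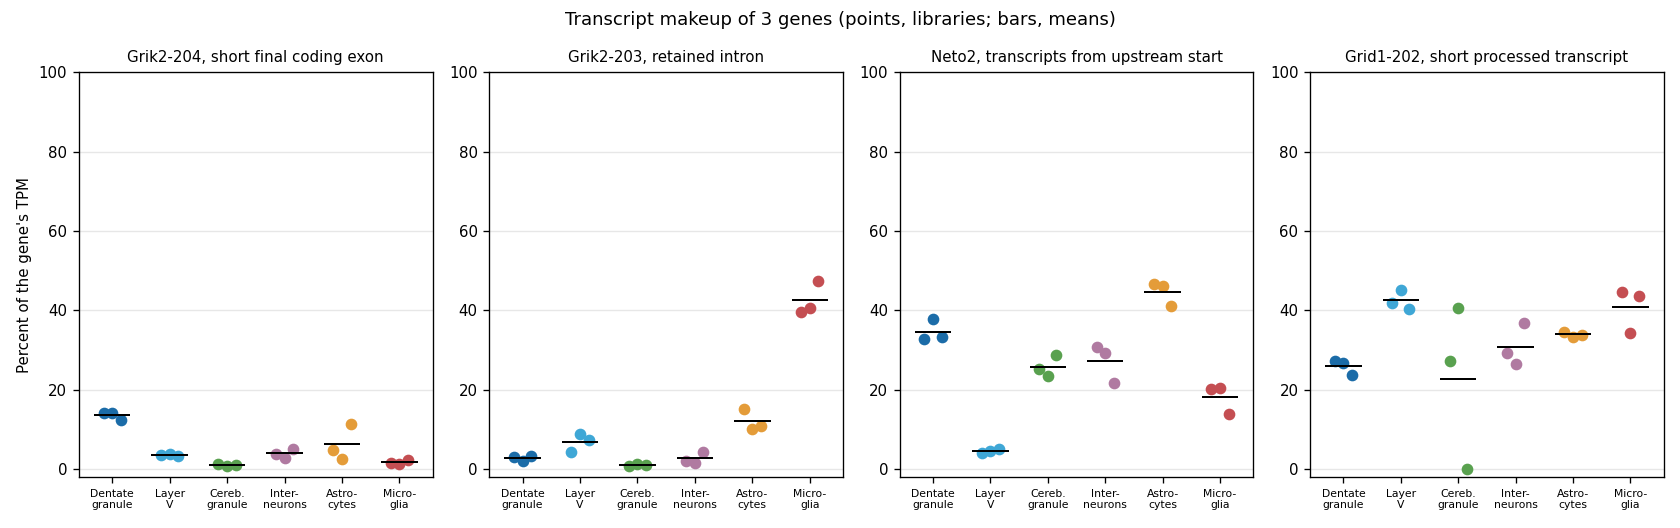
Share of a gene's TPM, in percent, for Grik2-204 (short final coding exon), Grik2-203 (retained intron), the Neto2 transcripts that begin at the upstream start and Grid1-202 (short processed transcript). Points are libraries and bars means of 3. Grik2-204 reaches 12.4% to 14.1% in dentate granule cells, and Grik2-203 is at 39.5% to 47.3% in microglia. The upstream-start Neto2 transcripts are at 4.06% to 4.98% in layer V neurons and at 13.7% or more elsewhere.

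Neto1 lies on the plus strand at chr18:86394952-86506718. Interneurons had 84.7, 102.5 and 98.7 TPM. Dentate granule cells had 43.0, 38.3 and 39.1 TPM, layer V neurons 38.6, 36.3 and 44.8 TPM, astrocytes 9.22, 8.20 and 7.89 TPM, and microglia 3.38, 3.11 and 4.48 TPM. Cerebellar granule cells had 0.0670, 0.0564 and 0.0471 TPM, from 7.41 to 12.7 estimated counts per library. Dentate granule cells and layer V neurons overlapped (log2 difference 0.05, SE 0.0793, adjusted p = 0.594), and the other neighbours were separate. Interneurons minus dentate granule cells was 1.34 (SE 0.0802, adjusted p = 7.47e-11). Microglia minus cerebellar granule cells, the step above the lowest type, was 5.80 (SE 0.165, adjusted p = 4.29e-16).

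Neto2 lies on the minus strand at chr8:85636588-85700924 and was highest where Neto1 was lowest. Cerebellar granule cells had 95.8, 102.2 and 105.8 TPM and interneurons 45, 54.2 and 53.5 TPM. Layer V neurons had 11.3, 11.7 and 13.6 TPM, astrocytes 10.8, 11.9 and 9.71 TPM, dentate granule cells 4.21, 5.71 and 6.23 TPM, and microglia 2.21, 2.65 and 2.18 TPM. Cerebellar granule cells were apart from all other types, at 1.99 times the interneuron mean (log2 difference 1.17, SE 0.0939, adjusted p = 2.86e-09). Layer V neurons and astrocytes overlapped. Their fitted difference was 0.36 (SE 0.0967, adjusted p = 0.00261), but 0.12 (adjusted p = 0.304) on length-scaled counts. Dentate minus cerebellar granule cells was -4.35 for Neto2 (SE 0.110, adjusted p = 2.40e-16) and 9.01 for Neto1 (SE 0.148, adjusted p = 8.45e-19).

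Neto2 transcripts begin at either of 2 start sites. Neto2-203 and Neto2-205 start upstream, at chr8:85700924 or shortly after, and the main transcript Neto2-201 and 2 others start downstream, at chr8:85691009 or shortly after. RefSeq (GRCm38.p6) holds a promoter window for each. The 250 bases before each start are shown because the share assigned to transcripts of each start differed between cell types. Both run 5′ to 3′ on the minus strand, with matches to GGGCGG or CCAAT on either strand in capitals.
Neto2 upstream promoter, chr8:85700925-85701174: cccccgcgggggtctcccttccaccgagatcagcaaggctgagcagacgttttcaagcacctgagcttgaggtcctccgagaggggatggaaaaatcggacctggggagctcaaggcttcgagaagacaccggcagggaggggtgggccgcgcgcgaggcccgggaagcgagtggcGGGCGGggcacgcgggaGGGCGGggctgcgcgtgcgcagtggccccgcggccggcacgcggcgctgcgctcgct
Neto2 downstream promoter, chr8:85691010-85691259: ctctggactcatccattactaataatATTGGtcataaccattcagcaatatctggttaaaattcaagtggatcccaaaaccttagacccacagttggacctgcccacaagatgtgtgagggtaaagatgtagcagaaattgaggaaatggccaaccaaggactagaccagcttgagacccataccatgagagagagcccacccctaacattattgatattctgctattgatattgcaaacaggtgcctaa

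The upstream window held 30 CG dinucleotides and was 72% G or C, and the downstream window held 0 and was 42.4% G or C. The median over 32851 promoter windows was 6 CG dinucleotides, 5.94% of windows held at least 30 and 7.87% held 0. GGGCGG occurred in 2 places upstream and none downstream, and 32.7% of all windows held it on either strand. CCAAT occurred in 1 place downstream, as its reverse complement ATTGG, and 33.8% of all windows held it. TATAAA was in neither window and in 12.4% of all.

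Transcripts annotated from the upstream start were assigned 4.06%, 4.59% and 4.98% of Neto2 TPM in layer V neurons. They took 32.7%, 37.7% and 33.3% in dentate granule cells, 25.1%, 23.5% and 28.8% in cerebellar granule cells, and 30.8%, 29.3% and 21.8% in interneurons. In astrocytes they took 46.7%, 46.1% and 41.2%, and in microglia 20.2%, 20.5% and 13.7%. All layer V libraries were below all others, and all astrocyte libraries above all others. Layer V neurons and astrocytes thus overlapped in the Neto2 total but not in the share assigned to upstream-start transcripts. These shares are estimates of how kallisto divided reads among overlapping transcripts that also differ elsewhere. They were not tested, and use of the start sites was not measured directly. In dentate granule cells the gene had 348 to 537 estimated counts per library, so these shares rest on fewer reads than in cerebellar granule cells, with 8306 to 10458.

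Most upstream-start signal was assigned to Neto2-205, which also has 21 more bases at one splice site, at chr8:85663387-85663407. They are shown in capitals with 15 bases on each side.
Neto2-205 extension: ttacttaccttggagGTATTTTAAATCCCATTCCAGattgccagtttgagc

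Grid1, which encodes the delta subunit GluD1, lies on the plus strand at chr14:34820108-35583379. Dentate granule cells had 54.8, 60.4 and 55.6 TPM, interneurons 40.1, 40.3 and 41.2 TPM, and layer V neurons 38.0, 36.9 and 39.6 TPM. Astrocytes had 32.2, 30.5 and 30.9 TPM and microglia 4.26, 4.51 and 4.48 TPM. The values in cerebellar granule cells were 0.364, 0.276 and 0.172 TPM. The dentate libraries were apart from the others, with dentate granule cells minus interneurons at 0.65 (SE 0.0729, adjusted p = 3.88e-07). Interneurons, layer V neurons and astrocytes did not overlap in TPM, but no pair among them passed the test. Layer V minus astrocytes was 0.02 (SE 0.0728, adjusted p = 0.799), and interneurons minus astrocytes 0.05 (SE 0.0728, adjusted p = 0.585). Astrocytes minus microglia was 3.07 (SE 0.0816, adjusted p = 3.72e-16), so the glial types were far apart. Cerebellar granule cells were below microglia by 3.88 (SE 0.121, adjusted p = 1.66e-15).

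Grid1-202, a processed transcript of 825 bases at the 3′ side of the gene, took 42.5% ± 2.48 of Grid1 TPM in layer V neurons (SD, n = 3) and 25.8% ± 1.96 in dentate granule cells. It took 30.8% ± 5.35 in interneurons and 33.9% ± 0.589 in astrocytes. All processed transcripts of the gene together took 42.4% ± 2.93 in microglia, close to 43.1% ± 1.87 in layer V neurons. In cerebellar granule cells, where the gene was very low, they took 22.6% ± 20.7. On length-scaled counts layer V minus astrocytes was 0.23 (adjusted p = 0.0133) and layer V minus interneurons 0.22 (adjusted p = 0.0226), the latter opposite to the TPM means, which were higher in interneurons (40.5 against 38.2 TPM). Counting only the protein-coding transcript, the Grid1 means were 42.2 TPM in dentate granule cells, 28.0 in interneurons, 21.7 in layer V neurons and 20.6 in astrocytes.

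Levels per length can be set against each other across genes. The 5 Grik genes together had 249 TPM ± 11.0 in dentate granule cells (SD, n = 3), 233 ± 4.51 in interneurons, 141 ± 2.25 in layer V neurons and 103 ± 0.691 in cerebellar granule cells. Astrocytes had 93.5 ± 6.53 and microglia 51.7 ± 5.37. Grik5 was the largest part of this sum in dentate granule cells (59.1% ± 0.597), layer V neurons (71.3% ± 0.964), astrocytes (77.2% ± 1.30) and microglia (71.3% ± 1.202). In interneurons Grik5 (35.1% ± 0.227) and Grik1 (32.3% ± 0.573) were nearly equal. In cerebellar granule cells Grik2 made up 67.9% ± 2.61 and Grik5 30.2% ± 2.49, while the means of Grik1, Grik3 and Grik4 were 0.906%, 0.481% and 0.495%.

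**Figure D3:**
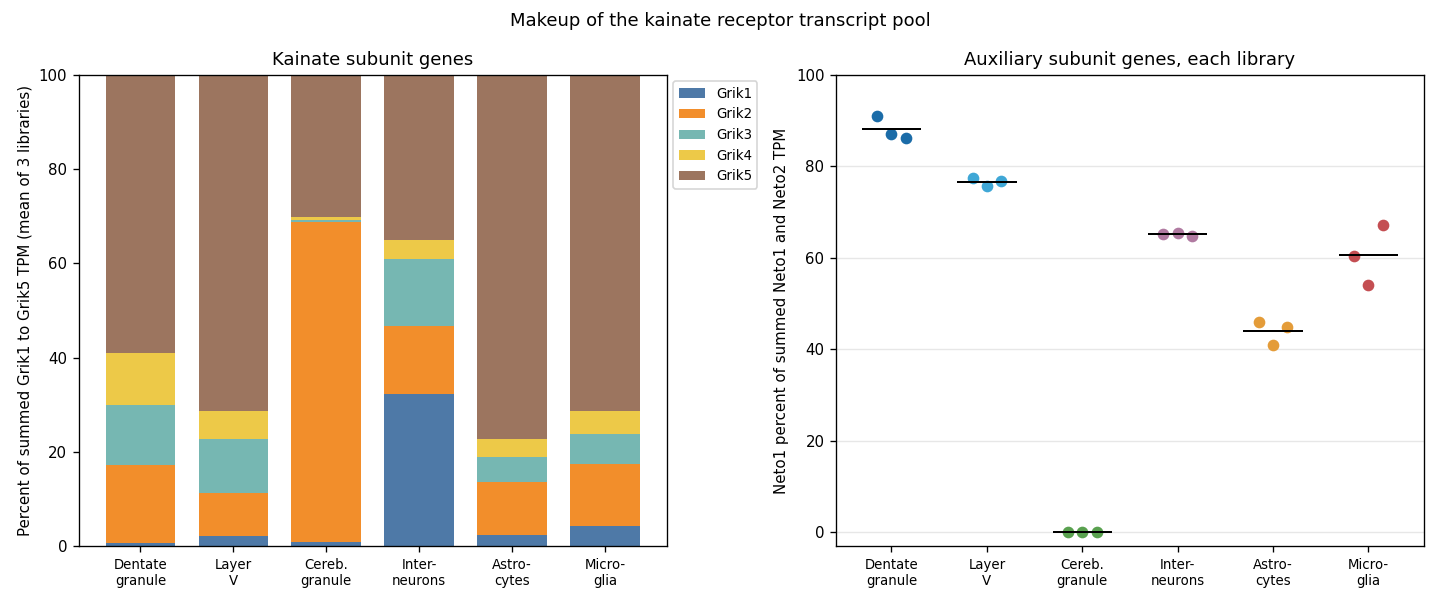
Left, mean percent of the summed Grik1 to Grik5 TPM held by each gene in the 6 cell types (n = 3). Right, Neto1 as a percent of Neto1 and Neto2 TPM, with points for libraries and bars for means. Grik2 fills most of the bar in cerebellar granule cells (67.9%), Grik1 appears as a large block in interneurons (32.3%), and the Neto1 share runs from 88.1% in dentate granule cells to 0.0565% in cerebellar granule cells.

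The high-affinity genes Grik4 and Grik5 together made up 70.0% ± 0.544 of the Grik sum in dentate granule cells and 77.2% ± 0.727 in layer V neurons, against 39.03% ± 0.236 in interneurons and 30.7% ± 2.50 in cerebellar granule cells. The Neto1 share of both auxiliary genes was 88.1% ± 2.60 in dentate granule cells and 76.6% ± 0.897 in layer V neurons, above the 65.2% ± 0.307 of interneurons. It was 0.0565% ± 0.0128 in cerebellar granule cells, where Neto2 was nearly the whole of the auxiliary signal, and 0.157% with the batch 2 library of replicate 3, which had 0.360 TPM of Neto1 from 9.16 estimated counts. Microglia (60.5% ± 6.61) and astrocytes (43.9% ± 2.70) lay between.

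Relative to the other glutamate-gated channels, the share of kainate subunit genes was similar among neuron types. The Grik sum was 13.01% ± 0.142 of all ionotropic receptor TPM (Grik1 to Grik5, Grid1 and the AMPA and NMDA receptor genes) in dentate granule cells, 13.1% ± 0.550 in interneurons, 13.5% ± 0.276 in cerebellar granule cells and 14.4% ± 0.272 in layer V neurons. It was 18.4% ± 0.392 in astrocytes and 23.0% ± 0.684 in microglia, above every neuronal library. Their total ionotropic receptor level was lower, at 507 TPM ± 25.2 in astrocytes and 225 ± 18.2 in microglia, against 763 to 1910 as means of the neuron types. The Grid1 share was highest in astrocytes, at 6.16% ± 0.148.

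The contrast of the mean of the 4 neuron types with the mean of both glial types asks which of these genes are higher in neurons on average. Grik1, Grik2, Grik3, Grik4, Grik5, Neto1 and Neto2 passed the test with higher levels in neurons, 7 of the 8, against 36.4% of all genes called in that direction. Neto2 (2.11, SE 0.0675, adjusted p = 1.81e-15) and Grik2 (2.06, SE 0.0482, adjusted p = 1.92e-17) had the largest log2 differences. Grik3 followed at 1.03, Grik1 at 0.87, Neto1 at 0.72, Grik4 at 0.68 and Grik5 at 0.44. Grid1 was at -0.01 (SE 0.0504, adjusted p = 0.843). The median of the 8 genes was 0.80, and that of all genes tested -0.18. Within batch 2, with 1 library for each of 4 types, Grid1 was at 0.27. The neuronal mean hides the spread described above, since it averages logarithms over types that include the very low cerebellar granule values of 6 of these genes. Of the 7 genes called, only Grik2 had a higher mean in every neuron type than in both glial types. For Grik1, interneurons had 75.2 TPM. Dentate (1.51 TPM) and cerebellar granule cells (0.930 TPM) were below astrocytes (2.15 TPM) and microglia (2.16 TPM).

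**Figure D4:**
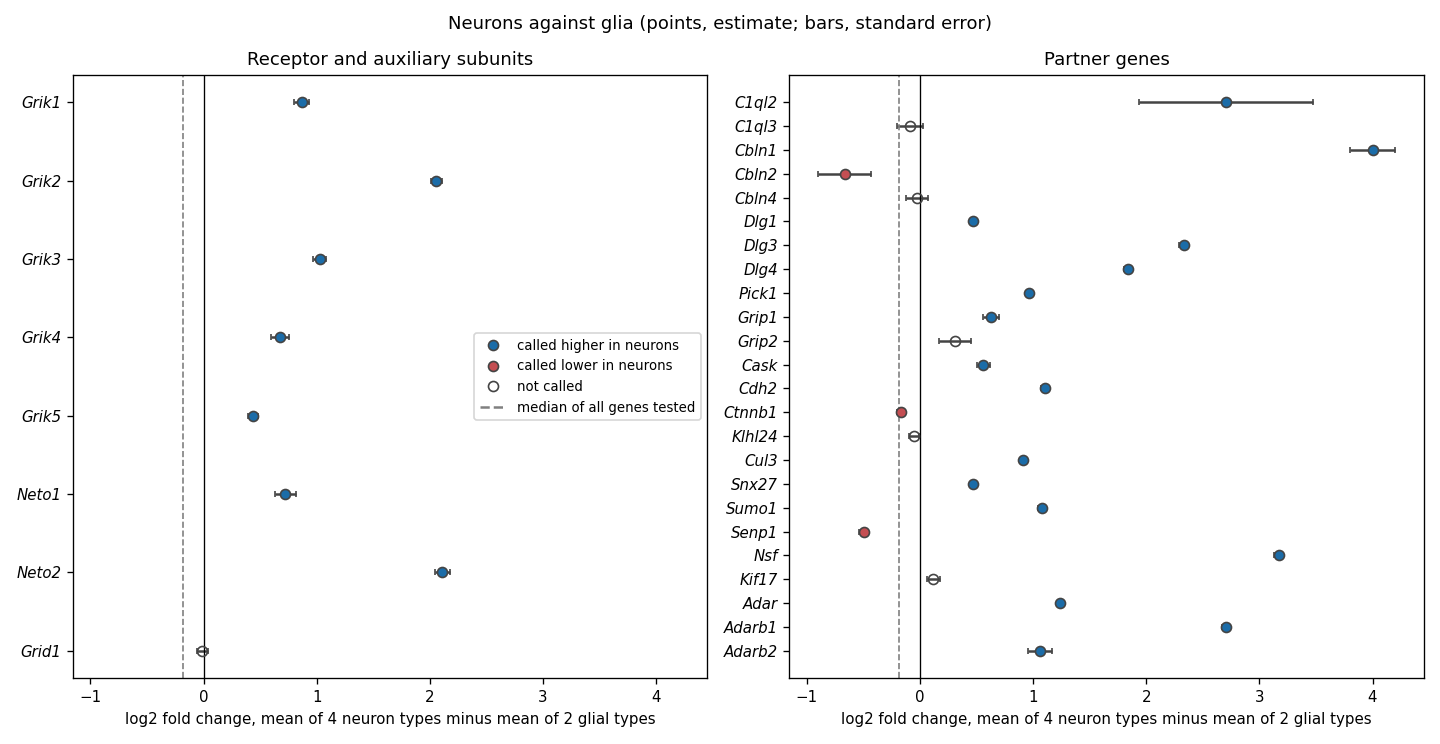
Log2 difference between the mean of the 4 neuron types and the mean of the 2 glial types for the 8 genes (left) and 24 partner genes (right). Points are edgeR estimates, bars standard errors, fill shows the call, and the dashed line is the median of all genes tested (-0.18). Of the 8 genes only Grid1, at -0.01, was not called.

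Neuronal RNA was present in the glial libraries, and its part in the glial levels of these genes was not tested. The pan-neuronal genes Rbfox3, Snap25 and Syt1 stood in astrocytes at 14.9%, 10.3% and 18.03% of their layer V mean TPM, and in microglia at 14.01%, 3.91% and 7.24%. Against the same layer V means, from the same tissue, astrocytes had 88.4% for Neto2, 81.8% for Grik2, 81.7% for Grid1, 72.8% for Grik1 and 71.7% for Grik5. Grik4 (43.2%), Grik3 (30.2%) and Neto1 (21.1%) were closer to the pan-neuronal genes. Microglia had 73.2% for Grik1, 52.2% for Grik2, 36.5% for Grik5, 31.2% for Grik4, 20.2% for Grik3, 19.2% for Neto2, 11.6% for Grid1 and 9.16% for Neto1. Against layer V neurons, all 8 genes in astrocytes were thus above the percentages of the 3 pan-neuronal genes. In microglia the values of Neto1 and Grid1 were within them. Set against interneurons, the ratio of mean TPM in astrocytes was 0.0286 for Grik1, 0.0885 for Neto1, 0.149 for Grik3 and 0.212 for Neto2. It was 0.314 for Grik2, 0.397 for Grik4, 0.770 for Grid1 and 0.883 for Grik5. Interneuron markers were higher in astrocytes than in layer V neurons, with means of 47.4 against 14.9 TPM for Gad1, 13.7 against 6.65 for Gad2 and 4.83 against 0.598 for Dlx6os1. Grik1 was at 75.2 TPM in interneurons and 2.15 TPM in astrocytes. The part of interneuron RNA in the glial levels of Grik1 and the other 7 genes was not tested.

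Partner genes encode proteins known to bind, anchor, move or edit these receptors. Of 25 listed, 24 were measured, and 16 were called higher in neurons, 3 lower and 5 neither (83.3% of all genes were called in either direction). Their median log2 difference was 0.77. All 3 RNA editing genes were higher, among them Adarb1, which encodes the enzyme that recodes the GluK2 pore, at 2.70 (SE 0.0326, adjusted p = 3.89e-21). The lowest of them was Adarb2, an inactive relative, at 1.06 (SE 0.105, adjusted p = 3.07e-08). Adarb1 was at 176 to 185 TPM in cerebellar granule cells, where Grik2 was highest too, and at 133 to 139 TPM in interneurons. In dentate granule cells, next to cerebellar granule cells in mean Grik2, Adarb1 was at 67.1 to 77.4 TPM. Layer V neurons had 48.8 to 50.6 TPM and glia 17.7 TPM or less.

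Of the 7 scaffold genes 6 were higher in neurons. Dlg3, which encodes the synaptic scaffold SAP102, had the largest difference (2.33, SE 0.0409, adjusted p = 3.66e-19), and Grip2 the smallest (0.31, SE 0.144, adjusted p = 0.0555), which did not pass. Of the 7 turnover and transport genes 4 were higher and Senp1, a SUMO protease, was lower (-0.50, SE 0.0376, adjusted p = 6.64e-10). Nsf, the ATPase of vesicle fusion, had the largest difference among them (3.17, SE 0.0420, adjusted p = 1.12e-20). The adhesion gene Cdh2, which encodes N-cadherin, was called higher in neurons (1.10, SE 0.0368, adjusted p = 3.52e-15), although astrocytes had the highest mean, 136 TPM, and microglia the lowest, 7.05 TPM. Ctnnb1, which encodes beta-catenin, was lower in neurons by a small margin (-0.17, SE 0.0389, adjusted p = 0.000677).

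The 5 secreted ligands were each concentrated in 1 or 2 cell types, and in neurons against glia 2 were called higher, 1 lower and 2 neither. C1ql2 and C1ql3 encode proteins that gather kainate receptors at mossy fibre synapses. C1ql2 had 481, 484 and 427 TPM in dentate granule cells and at most 12.5 TPM in any other library. C1ql3 had 484, 528 and 489 TPM there and 187 to 196 TPM in layer V neurons. Cbln1, the cerebellin of parallel fibres, which are the axons of cerebellar granule cells, had 2367, 2271 and 2205 TPM in those cells and at most 28.5 TPM elsewhere. Cerebellar granule cells, which had the least Grid1, therefore had the most of this ligand. Cbln2 was at 34.5 to 41.0 TPM in layer V neurons and 35.1 to 42.4 TPM in interneurons, and at most 0.140 TPM in cerebellar granule cells. Cbln4 averaged 48.1 TPM in interneurons and 4.88 TPM in the next type. With means so near 0 in some types, the neurons against glia values of the ligands (4.00 for Cbln1, the highest, and -0.66 for Cbln2, the lowest) depend on the fit and do not bound the difference.

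The genes whose log2 levels ran most nearly in parallel with each member over the 18 libraries were found by Pearson correlation over all genes tested. They are a description, since libraries of a type share most of their pattern. For Grid1 the nearest was Gabra2, a GABA-A receptor subunit gene (r = 0.998), followed by Grhpr (r = 0.993) and 2310009B15Rik (r = 0.991). The nearest to Grik5 was another GABA-A subunit gene, Gabra4 (r = 0.982), followed by Gm45716 (r = 0.982) and Rcor2 (r = 0.979). For Grik4 they were Scn3b, a sodium channel beta subunit gene (r = 0.989), Dapk1 (r = 0.987) and Npy5r, a neuropeptide Y receptor gene (r = 0.987).

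For Grik1, they were Npffr1, a neuropeptide FF receptor gene (r = 0.985), Gm4810 (r = 0.973) and Rbms3 (r = 0.971). For Grik2, they were Rabgap1, Pcdhb16 and Epg5 (r = 0.992 for all 3), and for Grik3 Matn2 (r = 0.997), Gpr12 (r = 0.995) and Galnt14 (r = 0.995). Neto1 ran with Iqsec3 (r = 0.995), Crtac1 (r = 0.995) and Tmem179 (r = 0.994), and Neto2 with Inpp5f (r = 0.976), Ggps1 (r = 0.975) and Hmgcll1 (r = 0.975). No gene among the 8 was among the nearest to another.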

How the data were processed

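Reads were trimmed by the authors with cutadapt 3.5 and quantified with kallisto 0.46.2, as the submitters' processing notes and the study's methods say, against GENCODE M24 transcripts (GRCm38). The deposited tables give estimated counts and TPM for 142552 transcripts in each of 22 libraries, both taken as the authors' values. Here both were summed over the transcripts of each of 55385 genes. Main results used 1 library per replicate, that of batch 1 where 2 existed (18 libraries). Summed counts were rounded, filtered with filterByExpr, scaled by TMM and fitted for all 6 types with edgeR 4.0.16 (quasi-likelihood test, R 4.3.3). P-values were adjusted by Benjamini-Hochberg over 20524 genes in each comparison. TPM levels are given untransformed, without a test. TPM corrects for transcript length and is a share of each library's total, so it moves with whatever else fills a library. The fitted differences rest on counts scaled by TMM. The scales can differ where transcript use differs, and also for a gene with a single transcript. For Grik3, dentate granule cells over layer V neurons was 1.94 in TPM and 1.66-fold in the fit.

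Exons were read from GENCODE M21 transcripts, whose versioned identifiers and lengths matched for every transcript of the 8 genes, and promoters from a RefSeq table that held windows for 5 of the 8 genes. The fit was tested on simulated counts for layer V neurons minus interneurons (20524 genes), where 74 of 100 genes changed 2-fold and 82 of 100 changed 4-fold were recovered, with 3 unchanged genes called. The main fit did not pair libraries by replicate number. Of 45 same-number correlations of deviations from the group means, 0 exceeded 0.1. Even so, 15 of 18 libraries correlated best with their own number, and the source of this weak link was not tested. The p-values measure the spread between 3 libraries per type, and the number of reads limits what can be said of levels below 1 TPM. The batch 2 library of layer V replicate 1 did not match its sex label and entered only the alternatives, where it is the only layer V library of the fit within batch 2. The alternatives were other size factors, DESeq2 1.42.0, no low count filter, length-scaled counts, protein-coding transcripts only, the batch 2 libraries, batch as a term (limma 3.58.1), a fit within the 10 batch 2 libraries, the replicate number as a block, each library left out, each pair fitted alone and adjustment over all 15 pairs. The members and gene lists were chosen with earlier results of these data known. The rule for named genes took all 8 members, the partner genes with the highest and lowest difference in each role and the 3 genes nearest to each member. Other genes were named for their role after their values were seen. Klhl17, a listed partner, was not analysed here, and the authors' own test (sleuth) was not run. One listed marker gene is not reported here.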

Additional observations from a re-analysis of the deposited data

How the results depend on the processing

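Of the 120 tests on pairs of cell types, between 111 (with 1 library left out) and 114 (length-scaled counts) passed under the alternatives. No called difference turned its direction. The fit within batch 2 has 1 library for 4 of the 6 types, so its calls are left out of this count. Without any 1 library 111 to 113 passed. Partner genes passed in 309 to 334 of 360 pair tests and in 18 to 21 of 24 tests of neurons against glia. With the replicate number as a block, 113 of 120 pair tests passed and no call changed. Same-number correlations were weak, though 15 of 18 libraries correlated best with their own number. The Grid1 difference between neurons and glia, not called in the main analysis (-0.01), was 0.018 without the low count filter, 0.12 with the batch 2 libraries (adjusted p = 0.0564), 0.10 with batch as a term and 0.27 within batch 2. Without any 1 library it ranged from -0.037 to 0.063, and no such fit called it. These changes were recorded and the cause was not tested. The median of all genes in this contrast was -0.18, and -0.10 with protein-coding transcripts only.

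Shares moved by more than 1 SD chiefly with protein-coding transcripts only. The Grik4 and Grik5 share of the Grik sum became 62.2% in dentate granule cells, 72.1% in layer V neurons, 23.3% in cerebellar granule cells, 31.5% in the interneuron group, 76.4% in astrocytes and 73.3% in microglia. The Grik share of ionotropic receptor TPM became, in the same order, 11.4%, 13.1%, 12.3%, 12.3%, 15.7% and 19.2%. The Grid1 share became 2.48% in dentate granule cells, 1.71% in interneurons, 2.54% in layer V neurons, 4.74% in astrocytes and 1.51% in microglia. With the batch 2 libraries the Neto1 share was 0.157% in cerebellar granule cells and 46.8% in astrocytes, and the Grid1 share 3.96% in layer V neurons and 6.00% in astrocytes. The share of the estimated reads given to single transcripts of genes below about 10 TPM is limited by depth.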
